A study of Ovis aries with 95 samples.

Results

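Gene expression in the hypothalamus was compared with that in the frontal cortex of fetal sheep at 80 d of gestation, about the middle of pregnancy in this species. The comparison was set by the labels: all 4 hypothalamus arrays and all 4 cortex arrays of that age were used, 8 of the 95 arrays of the series. The other arrays cover brainstem and hippocampus as well, and later ages: 100, 120, 130 and 145 d of gestation and newborn lambs of 1 d. The stated purpose of the series was to follow gene expression over brain development. No fetus was treated, and no genotype or strain is given. Per the study's methods each age group came from 4 fetuses that included 1 set of twins, the ewes were not in labor, the hypothalamus was dissected from below after the pituitary stalk was cut, and the cortex was a section of the frontal lobe. The labels mark neither the twins nor which hypothalamus and which cortex came from the same fetus, so p-values measure the spread between these arrays.

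The hypothalamus is a small region at the base of the brain in which many kinds of peptide neuron lie close together. Oxytocin neurons send axons to the posterior pituitary, neurons of the arcuate nucleus make growth hormone-releasing hormone, agouti-related peptide and the opiomelanocortin precursor, and these cells regulate appetite, growth, milk release and the pituitary. The frontal cortex at mid-gestation is still adding and maturing its layers of excitatory neurons, and it holds interneurons that make somatostatin and neuropeptide Y. In whole tissue, fewer cells of a type and less RNA per cell cannot be told apart.

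Each value below is the normalized intensity of a gene on an array, on the log2 scale, where a difference of 1 is a doubling. The microarray carried 15008 different 60-base probes for sheep genes, of which 1598 could be given a gene symbol here. Most were known by accession or locus alone, and some genes had several probes. Probes had to exceed the 95th percentile of the negative control probes by a factor of 1.1 on 4 or more of the 8 arrays to be tested, which left 11888 genes, 829 of them with a symbol. A gene was called different at a limma Benjamini-Hochberg adjusted p under 0.05 over all genes tested, and errors of differences are standard errors with 4 arrays per region unless stated. Between 77.1 and 81.6% of gene spots were well above background on the hypothalamus arrays and between 74.6 and 77.7% on the cortex arrays. Correlations between arrays were 0.985 to 0.992 among cortex arrays, 0.932 to 0.968 among hypothalamus arrays and 0.911 to 0.969 between the regions. The 8 arrays lay on 6 slides, none of which held both regions, and the regions were scanned on different days, so that slide and scan cannot be told apart from region. On cortex replicate 2, a spot with a signal minus local background of -8296 moved the background model of the whole array, so that its negative controls had a 95th percentile of 463 against 59.8 to 73.4 on the other arrays, and results that change without this array are given with both values.

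At 80 d, 1946 genes (16.4% of those tested) differed between the regions. Of these, 1304 (11%) were higher in hypothalamus and 642 (5.4%) were higher in cortex, so 67.0% of the calls pointed to the hypothalamus. This split varied with the processing. With the authors' own normalized table, in which 10723 genes were tested, 56.5% of the calls were higher in hypothalamus. The share was 57.3% with 48 arrays in the fit and 72.5% with the scanner's processed signal. The median difference over all genes was 0.02. Among genes with a symbol 163 were called (19.7%), 129 higher (15.6%) and 34 lower (4.1%). Counts on the lists below are to be read beside these shares of all genes and of genes with a symbol. Most called differences were modest. The median called difference was 0.80 for genes higher in hypothalamus and 0.85 for genes higher in cortex, with 57 and 46 genes over 2 on the log2 scale. The plot of all tested genes shows that calls were made over the whole range of intensities.

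**Figure D1:**
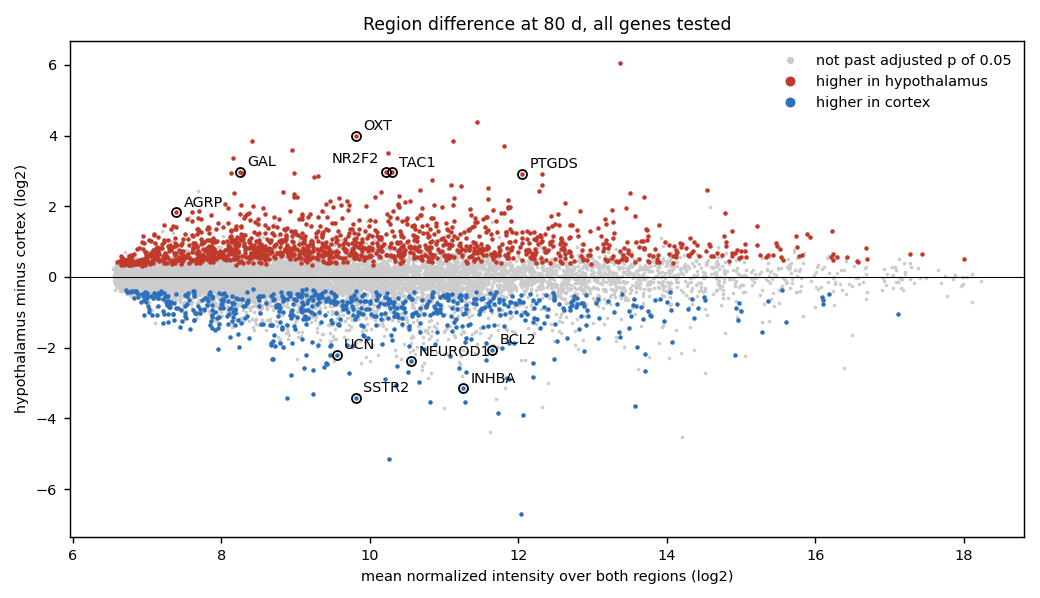
Difference between hypothalamus and cortex at 80 d (vertical axis, log2) against the mean normalized intensity over both regions (horizontal axis, log2) for the 11888 genes tested, 1 point per gene. Red points are the 1304 genes called higher in hypothalamus, blue points the 642 called higher in cortex and grey points the genes not past an adjusted p of 0.05; circles mark genes named in the text, from OXT at 3.99 to SSTR2 at -3.41.

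Most of the tested neuropeptide and neurohormone genes were higher in hypothalamus. Of 52 genes on this list, 22 had a probe and 21 were tested; 12 were higher in hypothalamus, 1 was lower and 8 were not called. The list had a median difference of 1.15, against 0.02 over all genes. Its mean level lay between 9.42 and 9.74 on the hypothalamus arrays and between 8.32 and 8.52 on the cortex arrays.

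OXT, which encodes oxytocin, had the largest difference of any gene with a symbol. It read 11.64, 11.96, 11.46 and 12.20 in hypothalamus and 7.77, 7.72, 8.0 and 7.81 in cortex, replicates 1 to 4 in each case. All hypothalamus arrays lay far above all cortex arrays, and the difference was 3.99 ± 0.17, a ratio of 15.9 (limma adjusted p = 2.10e-05). GAL, the gene of galanin, read 10.33, 9.70, 9.20 and 9.72 in hypothalamus against 6.77, 6.88, 6.59 and 6.81 in cortex, a difference of 2.97 ± 0.22 (adjusted p = 0.000185). The cortex values of GAL were close to the lowest intensities measured, while every hypothalamus array was well clear of them.

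TAC1, which encodes substance P and neurokinin A, was tightly grouped in hypothalamus at 11.96, 11.81, 11.60 and 11.74, but cortex replicate 2 stood apart from the other cortex arrays at 10.51 against 8.02, 8.25 and 8.51. The difference was 2.96 ± 0.49 (limma adjusted p = 0.00561) with this array and 3.52 without it. The same array was the highest of its group for NPVF, the precursor of gonadotropin-inhibitory RFamide peptides, at 7.93 against 6.62 to 6.78, and for NPPC, the gene of C-type natriuretic peptide, at 7.85 against 6.76 to 6.92. Both genes were higher in hypothalamus with it (1.74 and 1.96) and without it (2.05 and 2.21). ADCYAP1, which encodes the pituitary adenylate cyclase-activating peptide, read 11.27, 12.10, 12.56 and 11.91 in hypothalamus and 10.09, 9.99, 10.36 and 9.48 in cortex, a difference of 1.98 ± 0.28 (adjusted p = 0.00307).

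Genes of the arcuate nucleus were detected in hypothalamus at this age. POMC, the precursor of melanocortins and beta-endorphin, read 10.69, 11.48, 10.93 and 11.09 in hypothalamus and 9.12, 9.33, 9.83 and 9.55 in cortex, a difference of 1.59 ± 0.21 (limma adjusted p = 0.00204). AGRP, the melanocortin antagonist of hunger neurons, was at 8.11, 8.97, 8.28 and 7.88 in hypothalamus, while all cortex arrays lay between 6.41 and 6.55. GHRH, which drives growth hormone release, was at 7.62, 8.47, 7.67 and 8.07, against 6.40 to 6.55 in cortex. Neither AGRP nor GHRH was well above background on any cortex array, so that cortex gives only a bound: AGRP was at least 3.41-fold and GHRH at least 2.63-fold higher in hypothalamus (adjusted p = 0.00144 and 0.00204). A bound here is the ratio of the mean hypothalamus level to the lowest signal that counted as well above background on the cortex arrays, or to the probe's own level there if that was higher. It bounds the ratio of the array means only and makes no allowance for their error. TAC3, which encodes neurokinin B, read 7.69, 8.54, 7.83 and 7.95 against 6.47 to 6.75 in cortex, a difference of 1.37 ± 0.18 (adjusted p = 0.00232). For dim genes such as these the size of a difference depended on the processing. With the scanner's own processed signal the difference came to 5.81 for GAL and 4.18 for TAC3. These genes were well above background on 3 and 1 of the cortex arrays. The processed signal differs in both background correction and scaling, and their parts were not separated.

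The array probes behind the peptide genes are given here, because each measured level rests on these 60 bases alone. Capitals mark the stretch that the probe shares with the gene's other probe on the array; TAC3 has 1 probe and is in lower case throughout. The files do not place a probe within its gene or in a genome.
GHRH: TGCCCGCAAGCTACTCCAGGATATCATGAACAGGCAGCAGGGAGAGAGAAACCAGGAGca
AGRP: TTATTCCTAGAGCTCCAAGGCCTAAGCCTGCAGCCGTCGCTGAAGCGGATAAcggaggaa
POMC: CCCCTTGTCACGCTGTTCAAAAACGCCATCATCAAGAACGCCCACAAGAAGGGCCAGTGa
GAL: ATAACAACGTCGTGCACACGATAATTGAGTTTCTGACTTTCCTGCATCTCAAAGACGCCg
NPPC: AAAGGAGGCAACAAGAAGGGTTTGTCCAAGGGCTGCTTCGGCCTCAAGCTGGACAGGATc
TAC3: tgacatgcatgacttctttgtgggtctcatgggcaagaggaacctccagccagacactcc

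The shared stretches run over 58 bases in GHRH, 52 in AGRP and 59 in POMC, GAL and NPPC, so that the probes of these genes are near copies and not independent measurements of a gene. The pairs measured in both regions gave like differences: 1.51 and 1.67 for POMC, 2.77 and 3.18 for GAL and 1.87 and 2.05 for NPPC. G and C made up 45.0% of the GAL probe and 53.3 to 55.0% of the others.

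Smaller differences in the same direction were found for GRP and PMCH. GRP, the gastrin-releasing peptide, averaged 9.53 in hypothalamus and 8.39 in cortex (difference 1.15 ± 0.18, limma adjusted p = 0.00415). PMCH, the precursor of melanin-concentrating hormone, averaged 7.70 and 7.20 (0.50 ± 0.14, adjusted p = 0.0407), a call lost under 9 of 26 other ways of processing the data. GNRH1, the gonadotropin-releasing hormone gene, was at 6.84, 7.75, 6.78 and 6.85 in hypothalamus and 6.27 to 6.44 in cortex. It was not well above background on any cortex array, and the bound on its ratio of means was 1.5. GNRH1 missed the threshold (limma adjusted p = 0.0541) and was called in 11 of 25 alternatives.

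Hypothalamus replicate 2 was the highest array of its group for POMC, AGRP, GHRH, TAC3, GNRH1 and NPY. It was also the highest for CGA, the common subunit of the pituitary glycoprotein hormones, at 12.01 against 7.35, 8.41 and 7.86 on the other hypothalamus arrays and 6.40 to 6.59 in cortex. Without this array the differences were 1.45 for POMC and 1.19 for TAC3, and both of these genes, AGRP and GHRH were still called higher. For CGA itself the bound on the ratio of means was 5.25, but the gene missed the threshold (limma adjusted p = 0.0981). Without replicate 2 it was called higher (adjusted p = 0.00844). Of 6 tested genes that mark pituitary hormone cells, 2 were higher in hypothalamus (POMC and TRHR) and none lower. Their summed level, taken as the mean over the 6 genes, ran from 7.81 to 9.23 on the hypothalamus arrays and from 7.54 to 7.70 on the cortex arrays. PRL, the prolactin gene, averaged 7.14 and 6.74 (adjusted p = 0.261). The part of pituitary cells in the POMC difference was not tested.

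SST and NPY, which mark cortical interneurons and are made in hypothalamus as well, did not follow this pattern. SST, the gene of somatostatin, read 12.90, 13.86, 12.77 and 13.76 in hypothalamus and 13.43, 12.96, 13.72 and 13.78 in cortex, overlapping throughout (-0.15 ± 0.30, limma adjusted p = 0.768). NPY read 11.46, 12.49, 11.94 and 11.28 against 11.89, 11.72, 12.04 and 12.14, again with overlap (-0.15 ± 0.25, adjusted p = 0.718). CPE, the carboxypeptidase that trims prohormones, averaged 14.05 in hypothalamus and 13.09 in cortex (0.96 ± 0.34, adjusted p = 0.0943). PCSK1, the prohormone convertase listed as PC1, averaged 7.95 and 7.54 (0.41 ± 0.16, adjusted p = 0.117). The only peptide gene called higher in cortex was UCN, the urocortin gene, which the array lists as UNC. It read 10.44, 10.08, 11.80 and 10.32 in cortex and 8.31 to 8.65 in hypothalamus, a difference of -2.20 ± 0.34 (adjusted p = 0.00413), and its probes gave -2.22 and -2.18.

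**Figure D2:**
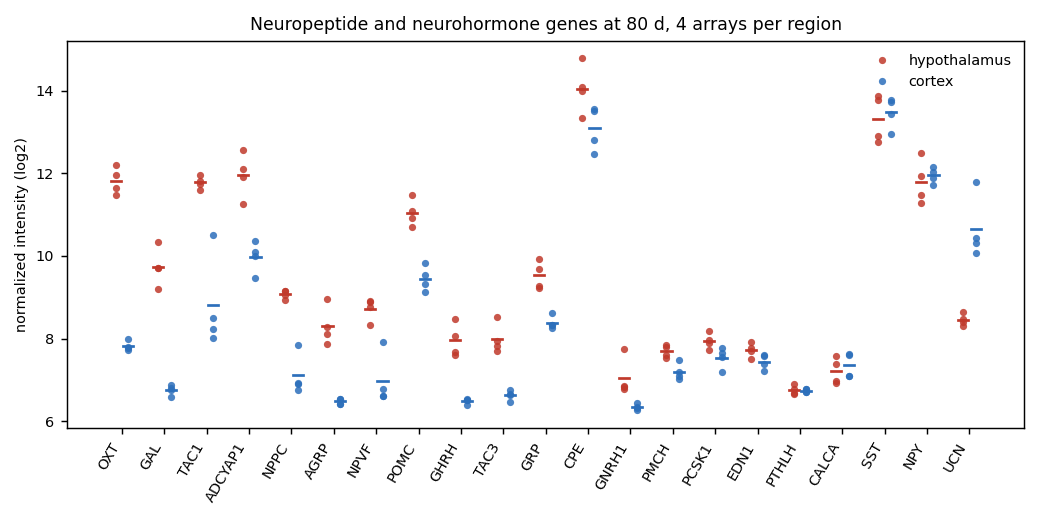
Normalized intensity (log2) of the 21 tested neuropeptide and neurohormone genes at 80 d, 1 point per array, 4 hypothalamus arrays (red) and 4 cortex arrays (blue), with bars at the group means. The groups lie apart for genes such as OXT (means 11.82 and 7.82), overlap for SST and NPY, and are in the opposite order for UCN (8.45 and 10.66); the cortex point of TAC1 at 10.51 is replicate 2.

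Transcription factors that mark regions of the embryonic brain differed as well. NR2F2, a nuclear receptor also called COUP-TFII, read 11.95, 11.89, 11.40 and 11.59 in hypothalamus and 8.76, 8.45, 9.07 and 8.60 in cortex, a difference of 2.98 ± 0.18 (limma adjusted p = 9.10e-05). Of 5 tested factors on the list of hypothalamic patterning genes, 4 were higher in hypothalamus and none lower. ISL1, a LIM homeobox factor of the ventral hypothalamus, read 8.69, 9.50, 9.75 and 9.23 against 7.02, 8.19, 7.05 and 6.75, where cortex replicate 2 was again the highest cortex array (2.04 ± 0.34, adjusted p = 0.00569, and 2.35 without that array). GATA3, a zinc finger factor of ventral neurons, read 10.48, 8.77, 9.12 and 9.38 against 7.21 to 7.62 (2.01 ± 0.33, adjusted p = 0.00547). NKX2-2 and NKX6-1, homeobox factors induced ventrally by Sonic hedgehog, were higher by 0.81 (adjusted p = 0.0344) and 0.55 (adjusted p = 0.0229), with both calls lost without cortex replicate 2 (adjusted p = 0.0738 and 0.0526). Leaving out single arrays lost these calls 6 and 4 times, and they were lost in 9 of 26 and 9 of 23 alternatives in all. NKX6-1 was not well above background in cortex, which makes it at least 1.36-fold higher. PTCH1, the Sonic hedgehog receptor, was 0.23 higher in hypothalamus and not called.

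The probe of ISL1 is shown because this gene was called at all 6 ages described below; capitals are the bases shared with its other probe, which gave 2.07 against 2.01.
ISL1: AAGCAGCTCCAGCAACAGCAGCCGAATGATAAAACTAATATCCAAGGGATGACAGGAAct

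Few genes that define cortical neurons could be tested, 3 of a list of 36. NEUROD1, a basic helix-loop-helix factor of newly born excitatory neurons, read 12.12, 11.73, 11.63 and 11.50 in cortex and 9.19, 9.30, 8.90 and 10.07 in hypothalamus, a difference of -2.38 ± 0.25 (limma adjusted p = 0.000895). PAX6, a factor of cortical progenitors, split the cortex arrays at 8.12, 10.01, 8.11 and 10.05, around hypothalamus values of 8.65 to 9.24, and was not called (-0.03 ± 0.48, adjusted p = 0.973). NRGN, the neurogranin gene of mature pyramidal neurons, overlapped between the regions at 7.31 to 8.32 in cortex and 7.55 to 8.31 in hypothalamus (adjusted p = 0.836). Of the lists drawn up for the labelled regions, NEUROD1 alone of the cortical genes was called higher in the arrays labelled cortex. In those labelled hypothalamus, 12 peptide genes and 4 patterning factors were called higher. Some of these genes, NEUROD1 among them, were as high or higher in brainstem or hippocampus, as given below. The lists were chosen with earlier results of these data known, so these counts are not an independent check of the labels.

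Among receptors for hormones and peptides, 5 of 36 tested entries were higher in hypothalamus and 5 were lower, and the median of 0.03 was close to that of all genes. Over genes with a symbol 15.6% were higher and 4.1% were lower, so that the number higher on the list was near that share. The largest difference was in SSTR2, a somatostatin receptor, which read 11.78, 11.14, 11.55 and 11.61 in cortex and 7.61, 8.30, 8.57 and 7.96 in hypothalamus. Cortex was higher by 3.41 (-3.41 ± 0.23, ratio 10.6, limma adjusted p = 0.000119), although the level of SST itself did not differ detectably. SSTR1, listed as SST1, read 8.62 to 9.39 in cortex and 7.72 to 7.89 in hypothalamus (-1.09 ± 0.17, adjusted p = 0.00444). NPY1R, a receptor for neuropeptide Y, was also higher in cortex (-0.82 ± 0.17, adjusted p = 0.0154), as were PTGFR, the prostaglandin F receptor (-0.64 ± 0.11, adjusted p = 0.00575), and INSR, the insulin receptor (-0.43 ± 0.12, adjusted p = 0.0457, or 0.121 without cortex replicate 2, lost in 11 of 22 alternatives). SSTR2 rests on 1 probe, shown here as the measurement behind the largest difference in favor of cortex among genes with a symbol.
SSTR2: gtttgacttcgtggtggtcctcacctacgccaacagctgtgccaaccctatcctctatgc

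The receptors higher in hypothalamus were those of growth hormone, oxytocin, thyrotropin-releasing hormone, thyrotropin and progesterone. GHR read 8.45, 8.26, 8.13 and 8.02 against 7.58, 7.72, 7.23 and 7.03 in cortex (0.83 ± 0.18, limma adjusted p = 0.0156). OXTR read 7.40, 7.65, 7.18 and 7.15 against 6.51 to 6.90 (0.70 ± 0.15, adjusted p = 0.0156). TRHR differed by 0.70 and TSHR by 0.58 (adjusted p = 0.0301 and 0.0221), with the calls lost in 5 of 26 and 5 of 23 alternatives. PGR was not well above background on any cortex array, which makes it at least 1.36-fold higher (adjusted p = 0.00806). TSHR was not called without cortex replicate 2 (adjusted p = 0.0571). PGR has another entry on the array, with a difference of 0.02. ESR1, the estrogen receptor, ranged from 6.76 to 8.68 in hypothalamus and from 6.72 to 7.23 in cortex and was not called (0.86 ± 0.41, adjusted p = 0.188), and its other entry differed by 0.18. None of 13 receptor and synapse genes of classical transmitters was called by limma, with a median of 0.05, and 3 had an unadjusted p under 0.05 (2 higher and 1 lower in hypothalamus). GRIA2, an AMPA receptor subunit, had the largest difference of these at 1.05, and GRIN1, an NMDA receptor subunit, averaged 7.93 in hypothalamus and 8.25 in cortex (adjusted p = 0.122), with probes of opposite sign (-0.81 and 0.16).

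Genes of glia and of fluid-producing epithelium formed the next group of differences. Of 11 entries for radial glia and astrocytes 5 were higher in hypothalamus and none lower (median 0.63). At an unadjusted limma p under 0.05, 7 were higher and 1 was lower. AQP4, the water channel of astrocyte endfeet, read 15.75, 15.64 and 15.94 on the 3 hypothalamus arrays with a value, since replicate 2 was left out for an outlier mark, and 12.70, 14.10, 12.85 and 13.62 in cortex. The difference was 2.46 ± 0.34 (limma adjusted p = 0.00356). GJA1, connexin 43, has a pair of entries: the one listed as CONNEXIN 43 read 12.31 to 12.92 against 10.42 to 10.54 (2.21 ± 0.14, adjusted p = 0.000105), and the one listed as GJA1 was lower in level and differed by 1.39 ± 0.12 (adjusted p = 0.000366). VIM, the intermediate filament of radial glia, read 16.05, 16.60, 16.20 and 16.44 against 14.97 to 15.33 (1.16 ± 0.15, adjusted p = 0.00194), but in the authors' own table its difference was 0.21 and was not called. CD81, a tetraspanin, was higher by 0.51 (adjusted p = 0.0251), a call lost without cortex replicate 2 (0.53, adjusted p = 0.0568) and in 10 of 24 alternatives in all. GFAP, the filament of mature astrocytes, averaged 8.57 and 7.94 (adjusted p = 0.0772), and CD9 averaged 10.72 and 9.86 (adjusted p = 0.0764). The glutamate transporter SLC1A3 differed by 0.52 (adjusted p = 0.336), and entries of SLC1A2 by 0.03 and 0.15, none called. MT3, a metallothionein, leaned toward cortex, with probes at -0.56 and -0.49, neither called by itself.

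TF, the transferrin gene, which oligodendrocytes and choroid plexus both make, read 10.55, 11.09, 10.40 and 11.77 in hypothalamus and 9.33, 9.0, 9.03 and 8.41 in cortex (2.01 ± 0.32, limma adjusted p = 0.00459). CRYAB, a small heat shock protein found in oligodendrocytes, was higher by 1.26 ± 0.20 (adjusted p = 0.00455), whereas GJB1, the myelin connexin listed as CX32, was dim in both at 6.92 and 6.78 and was not called (adjusted p = 0.342). PTGDS, the prostaglandin D synthase of meninges, choroid plexus and oligodendrocytes, read 13.47, 13.73, 13.13 and 13.73 against 10.93, 10.19, 10.45 and 10.82 (2.92 ± 0.20, adjusted p = 0.000165). TTR, the defining transcript of choroid plexus, varied more among arrays of a region than between regions, at 11.70, 12.35, 10.50 and 15.16 in hypothalamus and 13.41, 9.26, 9.55 and 11.22 in cortex (adjusted p = 0.392). IGF2, also made there, was 0.87 ± 0.54 higher and not called (adjusted p = 0.313). Over the 6 tested choroid plexus and ependyma genes 2 were called, both higher, and the mean level ran from 9.82 to 10.43 in hypothalamus and from 8.40 to 9.37 in cortex. The part of choroid plexus tissue in the PTGDS and TF differences was not tested.

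LCAT, the enzyme that esterifies cholesterol on lipoproteins, read 10.58, 10.90, 10.52 and 10.90 in hypothalamus and 7.74, 7.76, 7.92 and 8.10 in cortex, a narrow spread in both (2.84 ± 0.14, limma adjusted p = 3.21e-05). SLC2A5, the fructose transporter GLUT5, read 9.87, 10.55, 10.87 and 10.87 against 7.77, 9.26, 7.69 and 8.80, with the cortex arrays forming a high and a low pair (2.16 ± 0.39, adjusted p = 0.00789). SPA17, a sperm protein also found in ciliated cells, read 10.78, 12.10, 11.81 and 12.03 against 9.58, 10.19, 8.84 and 10.26 (1.96 ± 0.39, adjusted p = 0.0117). HSD11B1, which regenerates active glucocorticoid, was higher by 1.63 ± 0.13 (adjusted p = 0.000306), with values of 9.70 to 10.14 and 8.08 to 8.38, and its probes gave 2.09 and 1.18. HSD11B2, which inactivates glucocorticoid, ranged from 6.81 to 8.58 in hypothalamus and was not well above background in cortex, which makes it at least 2.21-fold higher (adjusted p = 0.0484). That call was lost in 13 of 23 alternatives, among them the removal of cortex replicate 2 (adjusted p = 0.115).

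Vessel and meningeal genes as a group did not follow: 2 of 26 entries were higher, none was lower, and the median was -0.04. The called genes were TIMP3 and TIMP2, inhibitors of matrix metalloproteinases, at 1.11 ± 0.15 (limma adjusted p = 0.00241) and 0.99 ± 0.22 (adjusted p = 0.0181, or 0.0504 without cortex replicate 2). PECAM1, KDR and the fibrillar collagen genes lay between -0.07 and 0.33, none called. The lowest entries were ABCG2, a transporter of vessel walls, at -2.07 ± 1.08 (adjusted p = 0.23), and SLC2A1, the glucose transporter listed as GLUT-1, at -1.04 ± 0.72 (adjusted p = 0.36). ABCG2 read 6.72, 12.26, 12.04 and 9.83 in hypothalamus and 12.04 to 12.39 in cortex. TIE1, a receptor of endothelial cells, differed by -0.47 ± 0.18 (adjusted p = 0.108) and had the only unadjusted p under 0.05 toward cortex on the list.

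Myeloid genes were of interest because the study followed immune genes in the brain. Of 20 entries for microglia and myeloid cells 5 were higher in hypothalamus and none lower, against 11% and 5.4% of all genes. The median of 0.11 was small. CTSS, the lysosomal protease cathepsin S, read 11.20, 11.37, 11.55 and 11.38 in hypothalamus and 9.09, 10.17, 8.73 and 9.65 in cortex (1.97 ± 0.28, limma adjusted p = 0.00313). ITGB2, the beta chain of leukocyte integrins, read 10.30, 10.39, 10.21 and 10.30 against 8.21, 8.95, 7.89 and 8.64 (1.87 ± 0.21, adjusted p = 0.00126). In both genes the hypothalamus arrays were tightly grouped and cortex replicates 2 and 4 were the highest cortex arrays. FCER1G, an adaptor of immunoglobulin receptors, was higher by 1.71 ± 0.29 (adjusted p = 0.00645), with probes at 2.24 and 1.17 of which only the former was called by itself. IL1B was higher by 0.74 (adjusted p = 0.0127) and CD86 by 0.62 (adjusted p = 0.00413), with CD86 probes at 0.97 and 0.28 and another CD86 entry at 0.07. In brainstem and hippocampus, CTSS averaged 11.15 and 11.20, ITGB2 9.68 and 9.92, FCER1G 10.24 and 9.62 and IL1B 7.87 and 7.99. These means lay nearer to hypothalamus than to cortex, whereas CD86 in brainstem (7.11) lay nearer to cortex. The levels of these regions were not tested.

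Other defining myeloid genes did not differ detectably. TYROBP, the microglial signaling adaptor, averaged 8.60 in hypothalamus and 8.58 in cortex (adjusted p = 0.955), CD14 averaged 7.88 and 7.55 (adjusted p = 0.139), and ITGAM was too dim to be tested. The mean over the 20 entries lay between 7.65 and 7.70 on the hypothalamus arrays and between 7.19 and 7.38 on the cortex arrays. None of 11 lymphocyte genes was called by limma (median 0.13), and 2 had an unadjusted p under 0.05, both lower in hypothalamus. MHCII-DRB1, a class II antigen-presenting chain, was higher by 1.31 ± 0.21 (limma adjusted p = 0.00547), the only call of 4 tested antigen presentation genes. Of 9 immune and hematopoietic genes that the study itself named from these arrays, 2 were higher, IL10 by 0.62 (adjusted p = 0.00667) and CD81, while CD3D, CD3E, CD5, CD1D, TGFB1, PSMB8 and CD9 were not called. That choice was made on the same samples and is not independent evidence. Of 11 genes of red blood cells and plasma proteins, TF was the only call, and HBB, the beta-globin gene, differed by 0.22.

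Growth factor genes were called in both directions. Of 54 entries for growth factors, their receptors and binding proteins 14 were higher in hypothalamus and 3 were lower, with a median of 0.13. Over all genes 11% were higher and 5.4% were lower, so that the number lower on the list was close to the share of all genes. IGFBP6, which binds insulin-like growth factor II, read 12.99, 11.42, 12.22 and 12.41 against 10.37 to 10.86 (1.68 ± 0.30, limma adjusted p = 0.00758). BMPR1B, a bone morphogenetic protein receptor, read 11.70 to 12.03 against 9.96, 10.85, 9.88 and 10.72 (1.57 ± 0.24, adjusted p = 0.00367). KITLG, stem cell factor, read 9.09, 8.37, 7.53 and 8.56 against 6.57 to 7.03 (1.57 ± 0.30, adjusted p = 0.00982). MET, the hepatocyte growth factor receptor, was higher by 1.02, FGF2 by 0.98, FGF1 by 0.86, WNT5A by 0.53 and BMP7 by 0.47 (adjusted p = 0.00204, 0.02, 0.0334, 0.0302 and 0.0174). Without cortex replicate 2 the calls of FGF1 and WNT5A were lost (adjusted p = 0.0751 and 0.0857). Leaving out single arrays lost FGF1 6 times and WNT5A 5 times, so that the loss was not particular to that array. Over all alternatives the call was lost in 8 of 24 for FGF1, 9 of 24 for WNT5A, 3 of 26 for FGF2 and 4 of 26 for BMP7.

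INHBA, the activin A subunit, was the growth factor gene with the largest difference, and cortex was higher. It read 13.23, 12.08, 13.55 and 12.47 in cortex and 10.66, 9.57, 9.90 and 8.60 in hypothalamus, a difference of -3.15 ± 0.46 and a ratio of 8.87 (limma adjusted p = 0.00338). ACVR1, an activin type I receptor, was also higher in cortex, at 8.86 to 9.54 against 8.05 to 8.73 (-0.86 ± 0.19, adjusted p = 0.0169). NRG1, the neuregulin ligand of ERBB receptors, read 9.52, 9.82, 10.04 and 9.87 in cortex and 8.61 to 9.0 in hypothalamus (-0.99 ± 0.15, adjusted p = 0.00409). The 2 probes of INHBA share a run of 59 bases, in capitals, and gave -3.54 and -2.76, which is why the sequence is shown.
INHBA: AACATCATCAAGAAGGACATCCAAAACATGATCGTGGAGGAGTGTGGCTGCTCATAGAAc

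Over 229 pairs of tested probes that overlap in sequence, the distance between the differences of a pair had a median of 0.15, and 28 pairs (12.2%) were more than 0.5 apart. Several genes with large differences in favor of cortex had probes more than 0.5 apart, but whether their probes overlap is not given gene by gene. A set of 30 genes with a symbol had the largest called differences without overlap, 15 in each direction. Among them, 10 of 19 genes with 2 probes had probes that share at least 40 bases. BCL2, the apoptosis inhibitor, read 13.13, 12.53, 12.50 and 12.55 in cortex and 10.76, 10.99, 10.56 and 10.17 in hypothalamus (-2.06 ± 0.21, limma adjusted p = 0.000777), with probes at -2.60 and -1.52. MYC, the proliferation-linked factor, read 11.87 to 12.20 in cortex and 10.14 to 10.98 in hypothalamus (-1.34 ± 0.19, adjusted p = 0.00303), with probes at -1.89 and -0.79. CRYAA, a crystallin, differed by -1.37 ± 0.28 (adjusted p = 0.013), with probes at -1.68 and -1.06. CXCL1, a neutrophil chemokine, ranged from 12.82 to 14.80 in hypothalamus and from 15.31 to 16.75 in cortex (-2.22 ± 0.55, adjusted p = 0.0273), a call lost in 8 of 26 alternatives. YWHAE, a 14-3-3 protein, and TCP1, a chaperonin subunit, differed by -1.39 ± 0.32 and -1.46 ± 0.38 (adjusted p = 0.0216 and 0.0328), and both calls were lost without cortex replicate 2 (adjusted p = 0.0623 and 0.0882). In all, the calls were lost in 5 and 10 of 26 alternatives. The probes of TCP1 gave -2.62 and -0.71, neither called by itself.

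KRT27 and KRT25, keratins of hair follicles, were dim but lay apart between the regions. KRT27 read 7.93, 7.41, 8.47 and 7.90 in cortex and 6.40 to 6.83 in hypothalamus (-1.27 ± 0.21, limma adjusted p = 0.00613). KRT25 read 7.69, 7.43, 7.33 and 7.55 in cortex and was not well above background in hypothalamus, which makes it at least 2.00-fold higher in cortex (adjusted p = 0.000756).

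In the remaining lists few genes were called. None of 13 cell cycle genes passed in limma (median 0.16), and 3 had an unadjusted p under 0.05 (2 higher and 1 lower in hypothalamus). CDKN1C, an inhibitor of cyclin-dependent kinases, had the largest difference of them at 1.18 ± 0.39 (limma adjusted p = 0.0728). Of 13 immediate early and stress genes, MYC was lower and FOS, an immediate early factor, was higher by 0.46 (adjusted p = 0.0333), with probes at 1.03, 0.14 and 0.22. The call of FOS was lost in 15 of 27 alternatives, among them the removal of cortex replicate 2 (0.50, adjusted p = 0.054). Of 23 genes of energy and lipid metabolism, LDHA, lactate dehydrogenase A, and FASN, fatty acid synthase, were lower in hypothalamus by 0.76 and 0.71 (-0.76 ± 0.18 and -0.71 ± 0.16, adjusted p = 0.0216 and 0.0197). LDHA was not called without cortex replicate 2 (-0.75, adjusted p = 0.0568), and its call was lost in 7 of 26 alternatives in all. The call of FASN was lost in 5 of 24 alternatives. CPT1B, which carries fatty acids into mitochondria, was higher by 1.19 ± 0.14 (adjusted p = 0.00129).

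**Figure D3:**
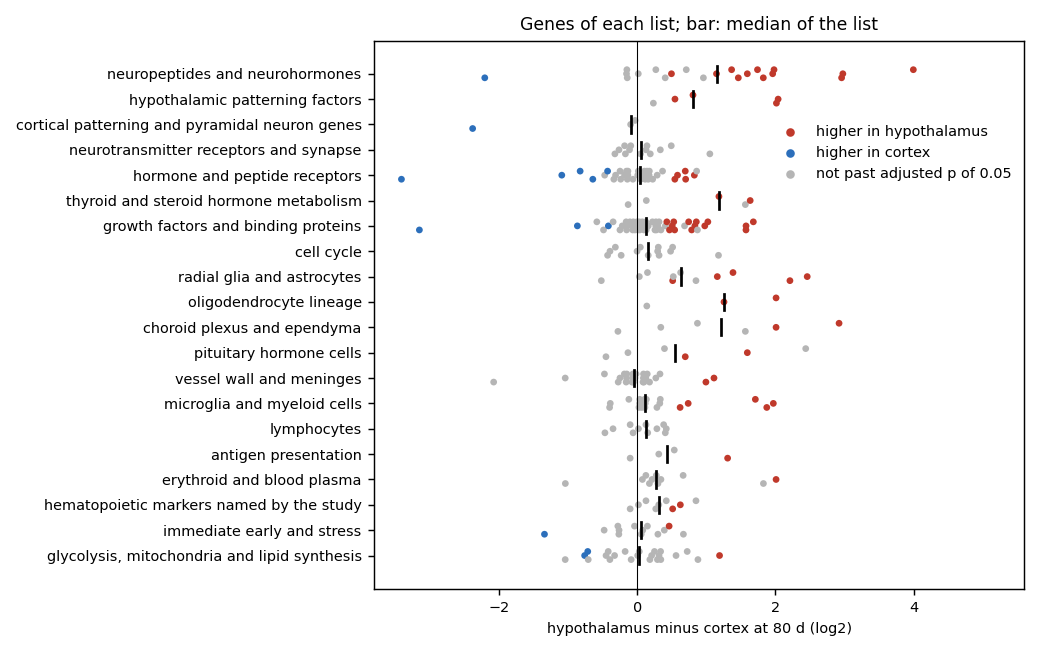
Difference between hypothalamus and cortex at 80 d (log2, horizontal axis) for each tested gene of 20 of the 21 lists, 1 point per entry, with a black bar at the median of a list. Red points are called higher in hypothalamus, blue points higher in cortex and grey points not called; the medians run from -0.09 for cortical patterning genes and -0.04 for vessel genes to 1.15 for neuropeptides and 1.26 for the 3 oligodendrocyte genes.

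The brainstem and hippocampus arrays of the same age show which of these genes stood apart in hypothalamus or cortex alone. These levels are side by side and were not tested. OXT was higher in hypothalamus (11.82) than in any other region, with brainstem at 8.30 ± 0.06 and hippocampus at 8.12 ± 0.14 (mean ± SD, n = 4). AGRP and GHRH were near 6.5 in the other 3 regions, at 6.57 and 6.54 in brainstem and 6.54 and 6.59 in hippocampus, and ISL1 was at 7.50 and 7.0. GAL was at 7.93 in brainstem and 6.98 in hippocampus, below its 9.74 in hypothalamus. The picture differed for TAC1, TF, PTGDS and LCAT, whose highest means were in brainstem at 12.78, 13.77, 14.46 and 11.53. GATA3 was higher in brainstem (10.24 ± 0.33) than in hypothalamus (9.44 ± 0.74), with overlapping arrays, and NPVF was higher in hippocampus (9.98 ± 0.58) than in hypothalamus (8.73 ± 0.27). NPPC, NKX6-1 and NKX2-2 had higher means in brainstem (10.17, 7.58 and 8.14) than in hypothalamus (9.07, 6.95 and 8.02). GRP averaged 9.53 in hippocampus and in hypothalamus, and ADCYAP1 averaged 11.80 in brainstem and 11.96 in hypothalamus. Of the 4 patterning factors called on the list, ISL1 alone had its highest mean in hypothalamus.

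For the genes higher in cortex, SSTR2 reached 11.52 ± 0.27 there against 8.83 ± 0.33 in brainstem and 9.29 ± 0.80 in hippocampus, and UCN reached 10.66 ± 0.77 against 8.18 ± 0.14 and 7.93 ± 0.14. In these genes every cortex array lay above every array of the other 3 regions. INHBA was at 12.83 in cortex, 11.30 in hippocampus and 9.72 in brainstem, with hypothalamus at 9.68 next to brainstem. NEUROD1 was higher in hippocampus (13.03 ± 0.09) and brainstem (12.72 ± 1.20) than in cortex (11.74 ± 0.27), so that hypothalamus was the region that stood apart. BCL2 was lower in all 3 other regions (10.54 to 11.35) than in cortex (12.68).

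**Figure D4:**
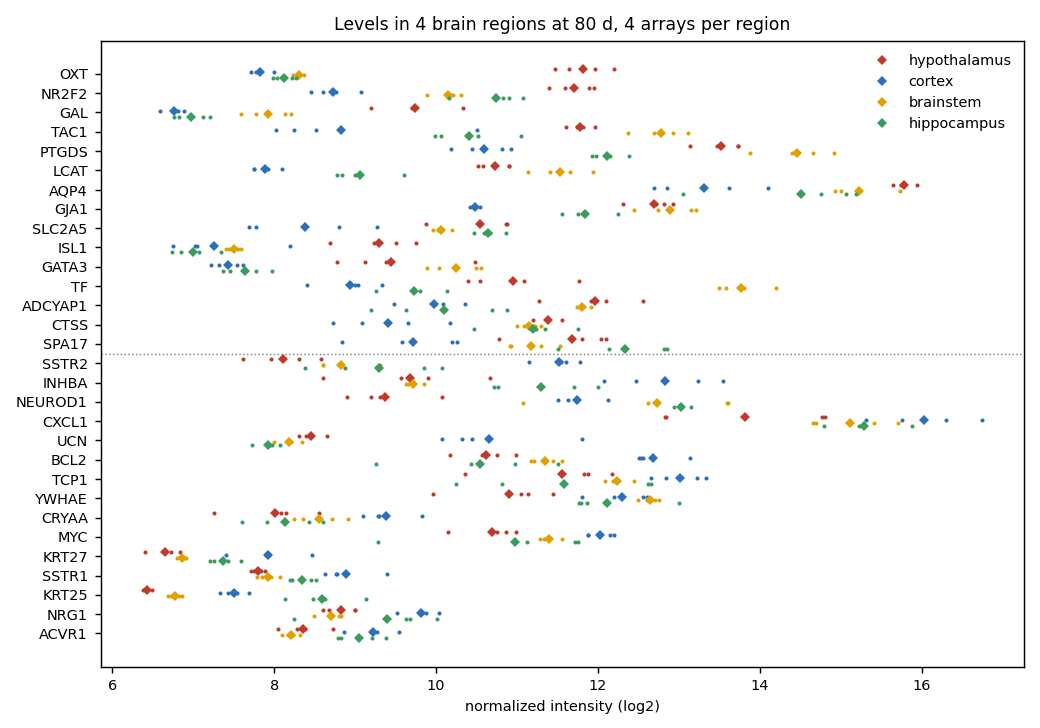
Normalized intensity (log2, horizontal axis) at 80 d in hypothalamus, cortex, brainstem and hippocampus. Genes are the 15 with a symbol and the largest called differences without overlap toward hypothalamus (above the dotted line) and the 15 toward cortex. Small points are arrays and diamonds are means of 4 arrays (3 for AQP4 in hypothalamus). OXT separates hypothalamus (11.82) from all other regions (7.82 to 8.30), SSTR2 separates cortex (11.52), and TF is highest in brainstem (13.77).

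The same comparison was made at the other ages, on arrays that the 80 d comparison did not use. The later cortex arrays lay on the same 3 slides as those of 80 d, and no slide or scan day held both regions. Slide and scan therefore cannot be told apart from region at any age, also where calls recur. It called 2910 genes at 100 d (24.5%), 2236 at 120 d (18.8%), 3197 at 130 d (26.9%), 3088 at 145 d (26%) and 2333 in newborn lambs (19.6%). Of the 1304 genes higher in hypothalamus at 80 d, 951 (72.9%) were called higher again at 100 d, where 14.8% of all genes were, and 479 (36.7%) in newborns, where 11.4% were. At 120, 130 and 145 d 47.8%, 49.2% and 45.9% were called higher, against 11.3%, 14.4% and 13.7% of all genes. Of the 642 genes lower in hypothalamus, 428 (66.7%) were called lower at 100 d and 204 (31.8%) in newborns, against 9.72% and 8.23% of all genes. At 120, 130 and 145 d 38.3%, 42.7% and 42.5% were called lower, against 7.47%, 12.5% and 12.2%. Calls in the opposite direction were few among the 1304, 1 at 100 d and 53 at 145 d.

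At all 6 ages 242 genes were called higher in hypothalamus and 124 lower, of which 29 and 12 have a symbol. The 29 include OXT, GAL, AGRP, NPVF, GHRH, TAC3, NPPC, ISL1, GATA3, NR2F2, LCAT, TF, SLC2A5, VIM, CRYAB, HSD11B1, CPT1B, PGR and TSHR, and the 12 include SSTR2, SSTR1, UCN, INHBA, NRG1, NPY1R, LDHA, MYC, YWHAE and KRT27. OXT was higher by 2.80, 2.35, 3.40, 3.11 and 2.94 at the ages from 100 d to newborn, and SSTR2 was lower with -3.45, -2.81, -2.88, -2.96 and -2.93. NPVF, which started at 1.74, was at 2.08, 2.98, 2.85, 2.79 and 2.24. GRP, by contrast, was called at 80 d but not from 100 d to 145 d and was lower in newborn hypothalamus (-0.45).

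**Figure D5:**
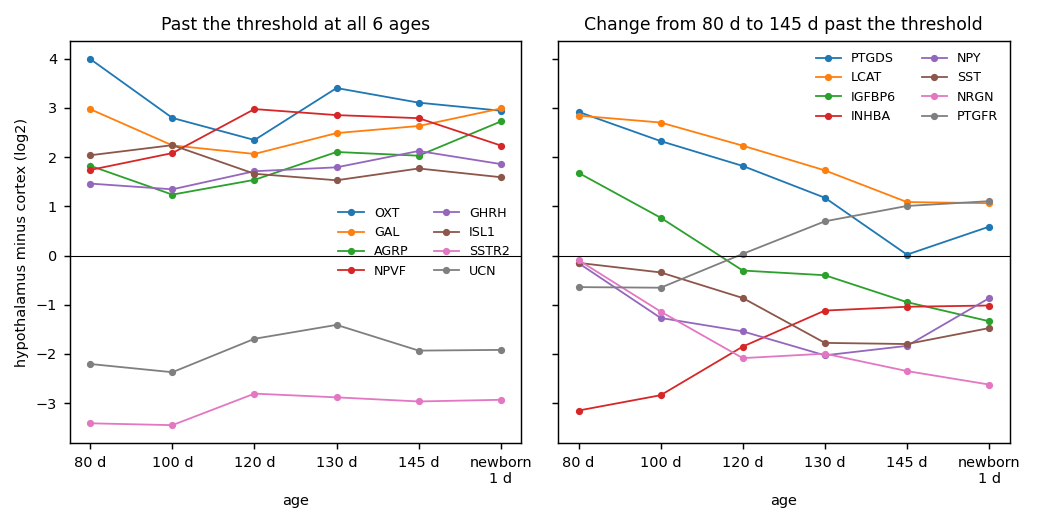
Difference between hypothalamus and cortex (log2, vertical axis) at 80, 100, 120, 130 and 145 d of gestation and in newborns 1 d after birth, 4 arrays per region and age; a line joins the values of a gene and no error bars are drawn. The left panel has genes called at all 6 ages, from OXT (3.99 at 80 d) to SSTR2 (-3.41), and the right panel has genes whose difference changed from 80 d to 145 d, such as PTGDS (2.92 to 0.02) and NRGN (-0.09 to -2.35).

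Whether a difference changed was tested between 80 d and 145 d, the last fetal age, with an interaction term over the 16 arrays of both regions. It was called for 833 genes (7.01%), of which 290 (2.44%) shifted toward hypothalamus and 543 (4.57%) toward cortex. The balance of these directions depended on scaling: with median centring and a limit on background differences, 942 genes were called and 65.7% of them shifted toward hypothalamus, with a median shift of 0.24 over all genes. Statements on single genes below are relative to the quantile normalization used throughout.

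PTGDS had a large difference at 80 d and none detectable at 145 d. It averaged 13.52 in hypothalamus and 10.60 in cortex at 80 d and 16.26 and 16.24 at 145 d, so that the difference went from 2.92 to 0.02, a change of -2.90 ± 0.31 (limma adjusted p = 0.000135). LCAT narrowed from 2.84 to 1.09 (-1.76 ± 0.23, adjusted p = 0.000471), with cortex means of 7.88 and 10.39. NR2F2 narrowed from 2.98 to 1.69 (-1.29 ± 0.31, adjusted p = 0.0197), with hypothalamus means of 11.70 and 10.52. IGFBP6 went from 1.68 to -0.95 (-2.63 ± 0.46, adjusted p = 0.00365), and INHBA narrowed from -3.15 to -1.04 (2.11 ± 0.52, adjusted p = 0.0251), with cortex means of 12.83 and 10.87.

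Several neuronal genes were not called at 80 d and were higher in cortex at 145 d. NRGN was at 8.18 in hypothalamus and 10.52 in cortex at 145 d, a change of -2.25 ± 0.38 (limma adjusted p = 0.00267). NPY went from -0.15 to -1.84 (-1.68 ± 0.40, adjusted p = 0.0202), and SST from -0.15 to -1.80 (-1.65 ± 0.41, adjusted p = 0.0263), though the change of SST was lost in 7 of 22 alternatives. PCSK1 went from 0.41 to -0.97 (-1.38 ± 0.22, adjusted p = 0.00181) and GRIN1 from -0.32 to -1.29 (-0.96 ± 0.19, adjusted p = 0.0061). In the other direction, GJB1, the myelin connexin, which was dim in both regions at 80 d, averaged 9.0 in hypothalamus and 7.66 in cortex at 145 d (change 1.20 ± 0.17, adjusted p = 0.000879). PTGFR passed from -0.64 to 1.01 (1.65 ± 0.28, adjusted p = 0.0029). It was among 69 genes called in opposite directions at the 2 ages with the change itself called, 9 of them with a symbol.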

How the data were processed

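RNA of each region and age was labeled with Cy3 and hybridized to one-colour arrays by the authors. The deposited file of each array holds the mean intensity and the local background intensity of every spot, read with Feature Extraction 10.1.1.1 per the file headers, before any normalization between arrays. The authors also deposited a table of normalized log2 values, used here as an alternative only. Groups came from the sample labels. The members, gene lists and tests were chosen with earlier results of these data known.

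Background was removed from the intensity by normexp with an offset of 50 in limma 3.58.1 (R 4.3.3), and values were quantile normalized over the 95 arrays. Spots marked as outliers were left out, which removed at least 1 array for 310 genes. Of 15008 probes, 12340 passed the filter on negative controls, and probes of a gene were averaged. The regions were compared at each age by lmFit and eBayes on the arrays of that age, and the change from 80 d to 145 d by an interaction term over 16 arrays, with Benjamini-Hochberg adjusted p under 0.05. The genes described are the 15 with a symbol and the largest called differences without overlap in each direction, and members of 21 lists of 790 genes, in which a gene may appear more than once. One gene of these lists is not reported here and was left out of the counts of its list. Symbols came from columns of the files or from the RefSeq table. In simulated data 200 of 11888 genes were changed, and arrays varied independently around the real genes' means and spreads. There the 80 d comparison found 2% of the genes given a log2 change of 0.5, 70% of those given 1 and 88% of those given 2. Of its calls, 3.08% were on unchanged genes. For the change to 145 d these shares were 8, 52 and 88%, and 3.23% of calls were on unchanged genes. The simulation held no slide or scan effect and fewer changed genes than were called in the data. Its shares therefore do not give the error rate of the real comparison. Precision is limited by the 4 arrays per region. Alternatives were the offset, the scanner's processed signal, other normalizations and filters, single probes, more arrays in the fit, the replicate number or the slide as a block, other eBayes settings and each array left out. After the data were seen, a limit on background differences at the 0.1th percentile of each array was added, alone and with median centring.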

Additional observations from a re-analysis of the deposited data

Results flagged for a closer look

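Among the genes named, 21 had a difference between the regions that changed from 80 d to 145 d, by the limma interaction term. Positive values are shifts toward hypothalamus. The changes toward cortex were -2.90 for PTGDS, -2.63 for IGFBP6, -2.25 for NRGN (TC10599), -1.81 for CPE, -1.76 for LCAT, -1.68 for NPY, -1.65 for SST, -1.39 for CTSS, -1.38 for PCSK1 (PC1), -1.35 for KRT27, -1.33 for FOS, -1.29 for NR2F2 (TC13358), -1.26 for ITGB2, -0.96 for GRIN1, -0.87 for BMP7, -0.86 for MET and -0.78 for TIMP3. Those toward hypothalamus were 2.11 for INHBA, 1.65 for PTGFR, 1.20 for GJB1 (CX32) and 0.85 for NKX6-1. The change was lost in 19 of 22 alternatives for CTSS, 12 for TIMP3 and 11 for CPE. ITGB2 had a larger region difference at 80 d (1.87) than at 145 d (0.61), a change lost in 1 of 22 alternatives. The difference of CTSS was 1.97 at 80 d and 0.58 at 145 d, a change that most alternatives did not call.

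In 6 of 188 groups of 4 arrays looked at, a single array lay far from the other 3, and chance gives about 1 such group in 20. Cortex replicate 1 read 13.13 for BCL2, cortex replicate 2 read 7.93 for NPVF and 7.85 for NPPC, and hypothalamus replicate 2 read 7.75 for GNRH1. Hypothalamus replicate 1 was low for BMP7 at 7.06, and hypothalamus replicate 4 was low for FOS at 7.72.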

How the results depend on the processing

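The count of genes called at 80 d (1946) lay between 1797 and 2879 under the other settings, except 523 under median centring and 1026 with the replicate number as a block. Median centring moved the median of all genes to 0.06, and with the limit on background differences it called 2879 genes. The processed signal moved it to 0.13, with 72.5% of calls higher in hypothalamus. With slide as a random block, 2583 genes were called (correlation of arrays on a slide 0.18). Deviations of same-numbered arrays from their group means correlated at -0.126 to 0.018. This cannot decide whether the replicate numbers pair the samples, because differences between fetuses need not appear alike in both regions. The block also lowered the count for the change to 145 d from 833 to 509. That change had 0 calls under median centring in limma (979 genes at an unadjusted p under 0.05, median of all genes 0.26), 942 when the limit was added, and 1372 over 48 arrays. Leaving out each array in turn gave 952 to 2011 calls at 80 d, with 952 without cortex replicate 1 and 1297 without hypothalamus replicate 4. It gave 545 (without cortex 145 d replicate 2) to 890 calls for the change, and 2037 to 3521 at 145 d, with 2037 and 2052 without cortex 145 d replicates 1 and 2. Shared with the reported calls were 1910 of the 1948 made with the limit and 1629 of the 1798 made in the authors' table.

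Directions turned only for genes not called at 80 d and for 1 change. PAX6 came to 0.31 with the processed signal, 0.0609 under median centring and 0.0343 on its brighter probe. GRIN1 came to 0.16 on its brighter probe. TYROBP (TC19711) came to -0.066 with the processed signal, -0.0669 under median centring, -0.0654 on the dimmer of its probes, -0.0648 with the limit added, -0.00284 in the authors' table and -0.0363 with the slide block. Leaving out an array moved NPY between -0.385 and 0.0171, SST between -0.328 and 0.0372, PAX6 between -0.35 and 0.298, NRGN (TC10599) between -0.284 and 0.0512 and TYROBP between -0.154 and 0.238. The change of NKX6-1 was -1.77 with the processed signal. Over 94 genes and their alternatives at 80 d, 2122 values kept direction and side of the threshold, 170 lost the call, 41 gained it and 23 turned. The causes were not tested.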

Other observations

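Other genes with a symbol, not described by value above, also had a region difference that changed from 80 d to 145 d, and they were chosen after their values were seen. PTGS2, the inducible cyclooxygenase of prostaglandin synthesis, had group means of 7.59 in hypothalamus and 7.48 in cortex at 80 d, and of 8.10 and 11.11 at 145 d. Its difference changed by -3.13 ± 0.55 (limma adjusted p of the interaction term = 0.00354). TUBA4A, an alpha tubulin, was higher in hypothalamus at 80 d, at 8.35 against 7.0, and lower at 145 d, at 9.90 against 11.12 (change -2.57 ± 0.41, adjusted p = 0.00194). ATP6V0C, a subunit of the proton pump of vesicles and lysosomes, had means of 12.83 and 12.71 at 80 d and of 11.87 and 13.63 at 145 d (change -1.88 ± 0.27, adjusted p = 0.00092). ALDOA, the glycolytic enzyme aldolase A, a member of the energy and lipid metabolism list, had means of 12.15 and 11.86 at 80 d and of 11.80 and 13.34 at 145 d (change -1.84 ± 0.33, adjusted p = 0.00377). In each of these genes the cortex mean was higher at 145 d than at 80 d, a difference between ages that was not tested. The interaction had no calls under median centring, as given above.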
